A study of Mus musculus with 3 samples.

Results

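Growth factor signals of the FGF, PDGF and ErbB families were followed in mouse mitral valves through 6 genes, which were taken by name: the ligands Fgf2, Fgf7 and Pdgfc, the receptor Erbb4 and the intracellular inhibitors Spry1 and Spred1. All 6 were among the 3264 genes that had a value in every cell. The data came from droplet RNA-Seq with 10x 3' v3 chemistry, in which a transcript carries the barcode of its cell and a molecular identifier that is counted once (UMI). The 3 samples of the mgR group were mitral valves of B6.129-Fbn1tm2Rmz/J mice at 12 weeks of age. These mice are homozygous for the hypomorphic mgR allele of Fbn1, in which a neomycin cassette lowers expression of fibrillin-1 in every tissue, and they develop myxomatous valve degeneration. Libraries were pooled in 1 matrix, and since no barcode can be traced to a mouse, a genotype or a library, it was read as 1 sample, without replicates, a comparison of genotypes or p-values. Whether a barcode stands for a cell or a nucleus is not known, and barcodes are called cells throughout.

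FGF and PDGF ligands and the neuregulins that bind ErbB4 act on receptor tyrosine kinases, which pass the signal on through adaptor proteins to Ras and the MAP kinases. Sprouty and Spred proteins are induced by or recruited to this cascade and restrain it, and therefore mark a feedback on growth factor signaling. In the developing heart, ErbB and FGF signals take part in forming the endocardial cushions from which the valve leaflets and their fibroblasts arise.

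The matrix held 16383 cells with 503 to 23127 UMIs each and a median of 5349. Its genes lie on chromosomes 1, 2 and 3, and whether all of these chromosomes are covered was not tested. Of 108 genes listed for these pathways 17 were in the matrix, the 6 members among them. None of 7 FGF receptors and coreceptors and none of 11 EGF family ligands were analysed here, and Erbb4 was the only 1 of 4 ErbB receptors. The order of the barcodes restarts once, which gives a first run of 14222 cells (median 5154 UMIs) and a second of 2161 (median 6918 UMIs), and 11 barcodes occur in both. No genotype can be assigned to a run, and most ratios of members past 2-fold are given within each of them beside the pooled value. A level is the number of UMIs of a gene per 10000 UMIs of all cells of a group, followed in parentheses by its 95% exact Poisson interval, and ratios of levels have 95% exact conditional intervals. Both kinds of interval hold the counting error alone, and not the spread between cells or between mice.

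Cells were sorted by their own marker UMIs. Fibroblasts had at least 2 of the genes Prrx1, Col3a1 and Dpt without the endothelial gene Egfl7, and numbered 3149 cells with a median of 6063 UMIs. Endothelial cells had Egfl7 and fewer than 2 of those genes, and numbered 8966 cells with a median of 5365.5 UMIs. Cells with Ptprc, the gene of the leukocyte antigen CD45, but without the other markers numbered 470, with a median of 4851 UMIs. A further 421 cells carried fibroblast genes together with Egfl7, and 3377 cells met no rule. Fibroblasts were divided into 514 cells with Scn7a, a sodium channel gene, 1662 cells with Prg4, the gene of the surface lubricant lubricin, 277 with both and 696 with neither. Endothelial cells were divided by UMIs of 1 of 3 gene pairs into 2715 Prox1/Kif26b cells, 726 Tmem163/Kcnh1 cells and 1342 Selp/Fmo2 cells, beside 2605 cells of several pairs and 1578 of none. Where shares of cells with a UMI are compared, each cell was thinned to 2000 UMIs. Thinning left out 92 fibroblasts, among them 10 Scn7a and 46 Prg4 cells, 563 endothelial cells and 54 Ptprc cells.

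Marker lists were then read in these groups, and genes of the sorting rules are counted in them. The matrix held 8 of 11 fibroblast markers, with a summed level of 31.6 in fibroblasts, 4.53 in endothelial cells and 2.70 in Ptprc cells, and Col5a2 the most abundant in each. Of 12 endothelial markers 6 were present, summing to 2.23, 31.7 and 2.36 in the same order, with Eng the most abundant in endothelial cells and Egfl7 at 0 by definition in the other groups. Of 11 leukocyte markers 10 were present, summing to 0.554, 0.580 and 49.3, with Ptprc the most abundant in Ptprc cells. Other lists had few genes to read. The mural list had 1 of 5 genes, Rgs5, at 0.0985 in fibroblasts, 0.00205 in endothelial cells and 0.00823 in Ptprc cells. The melanocyte list had 1 of 4 genes, Mlph, at 0.263, 0.0426 and 0.0741. The cardiomyocyte list had 4 of 9 genes, summing to 0.111, 1.52 and 0.317, with Ttn the most abundant. Of 4 mesothelial genes 0 were present.

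In outline, Erbb4 and Spry1 were fibroblast genes, Fgf2 and Fgf7 were higher in fibroblasts than in endothelial cells, and Pdgfc and Spred1 were highest in Ptprc cells. Between fibroblasts and endothelial cells, 4 of 6 members (Fgf2, Fgf7, Erbb4 and Spry1) were at least 2-fold higher in fibroblasts, against 18.1% of the 2592 genes with at least 50 UMIs in both groups together. None was at least 2-fold lower, against 15.1% of genes. The median ratio of the members was 5.48, and that of all genes compared was 1.04. The 2 fibroblast subgroups divided the members. In Scn7a fibroblasts 2 of 6 members, Fgf7 and Spry1, were at least 2-fold higher than in Prg4 fibroblasts, against 5.65% of 2054 genes, and another 2 of 6, Pdgfc and Erbb4, were at least 2-fold lower, against 6.18%. The median ratio of the members was 0.954 there and that of all genes 0.989, since members lay on both sides. Fgf7 and Spry1 were thus higher in the fibroblasts in which Pdgfc and Erbb4 were lower, and Fgf2 and Spred1 did not differ by 2-fold.

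**Figure D1:**
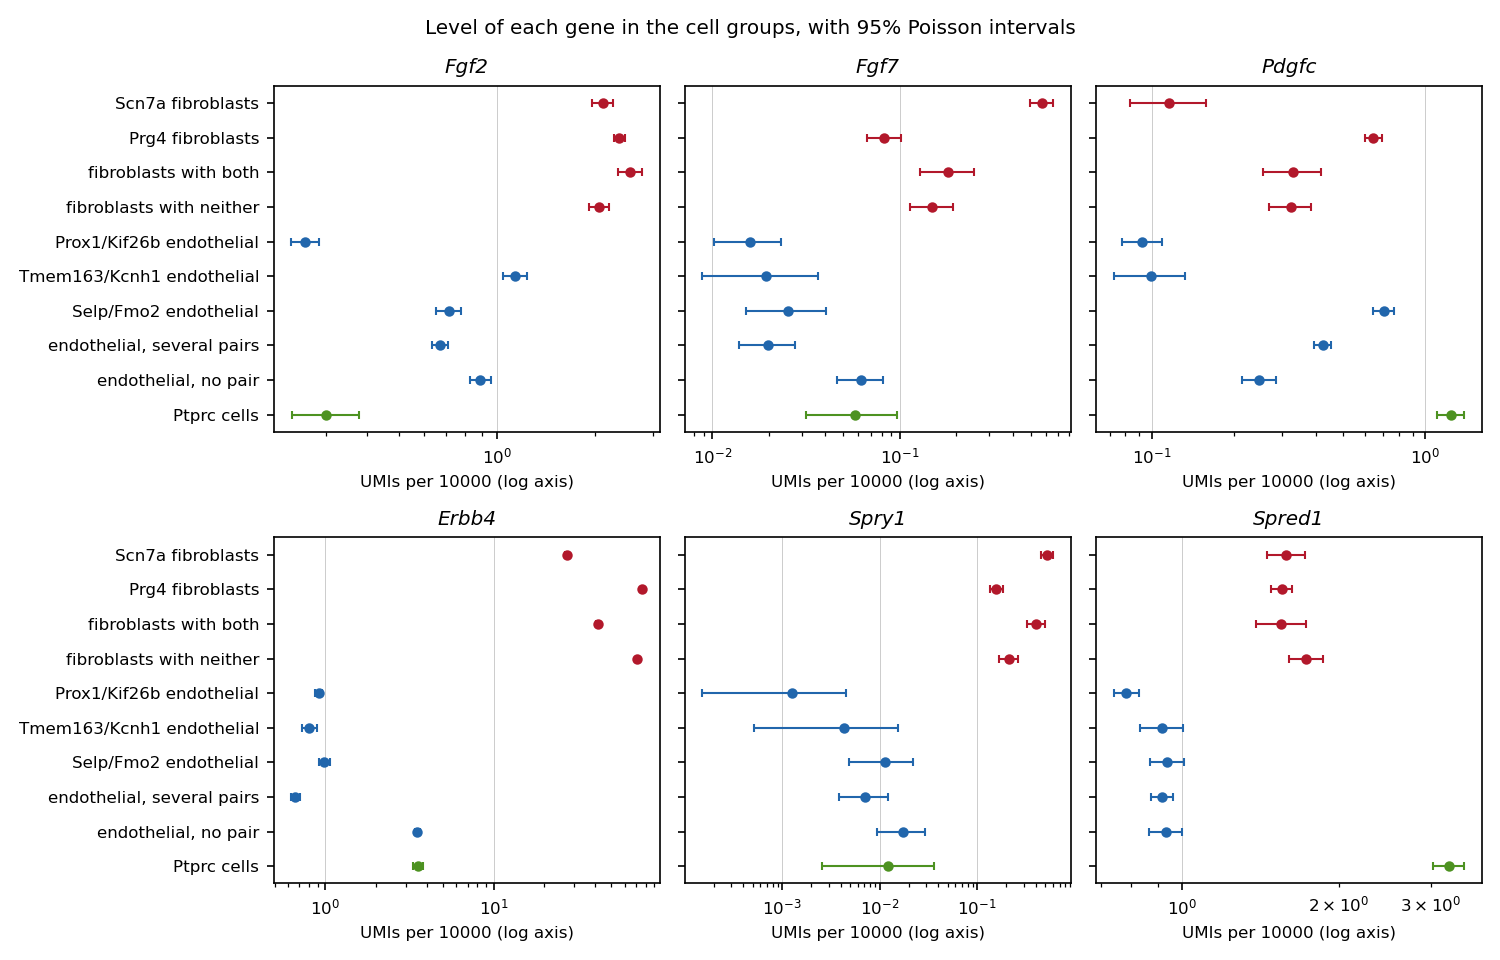
Levels of the 6 genes in the 10 cell groups, in UMIs per 10000 on a log axis, with points for pooled levels and bars for 95% exact Poisson intervals. Fibroblast groups are red, endothelial groups blue and Ptprc cells green. Erbb4 and Spry1 were higher in all 4 fibroblast groups than in the other groups, and Pdgfc and Spred1 were highest in Ptprc cells.

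Fewer members stood apart within the endothelium, where Spry1 had 2, 2 and 8 UMIs in the 3 subgroups, under the minimum of 50, and 5 members were compared. Prox1/Kif26b cells had 0 of 5 members at least 2-fold higher than the other 2 subgroups together, against 3.77% of 2151 genes, and 2 of 5, Fgf2 and Pdgfc, at least 2-fold lower, against 6.69%. Tmem163/Kcnh1 cells had 1 of 5 higher, Fgf2, against 5.39% of genes, and 1 of 5 lower, Pdgfc, against 7.25%. Selp/Fmo2 cells had 1 of 5 higher, Pdgfc, against 4.74%, and 0 of 5 lower, against 4.0%. The 2 ligands thus took opposite sides in Tmem163/Kcnh1 cells and were both low in Prox1/Kif26b cells. Median ratios of the members in these comparisons were 0.687, 1.03 and 1.53, and those of all genes 0.992, 0.965 and 0.995. Each of these member medians was the ratio of Fgf7, which had few UMIs there (25 in Prox1/Kif26b cells, 9 in Tmem163/Kcnh1 cells and 18 in Selp/Fmo2 cells) and changed sides between the runs, at 1.28 and 0.190 for Prox1/Kif26b cells and 0.140 and 10.8 for Tmem163/Kcnh1 cells. In Ptprc cells 2 of 6 members, Pdgfc and Spred1, were at least 2-fold higher than in fibroblasts and endothelial cells together, against 15.7% of 2640 genes. Another 3 of 6 (Fgf2, Erbb4 and Spry1) were at least 2-fold lower, against 25.2%, and the median ratio was 0.543 for the members and 0.913 for all genes.

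**Figure D2:**
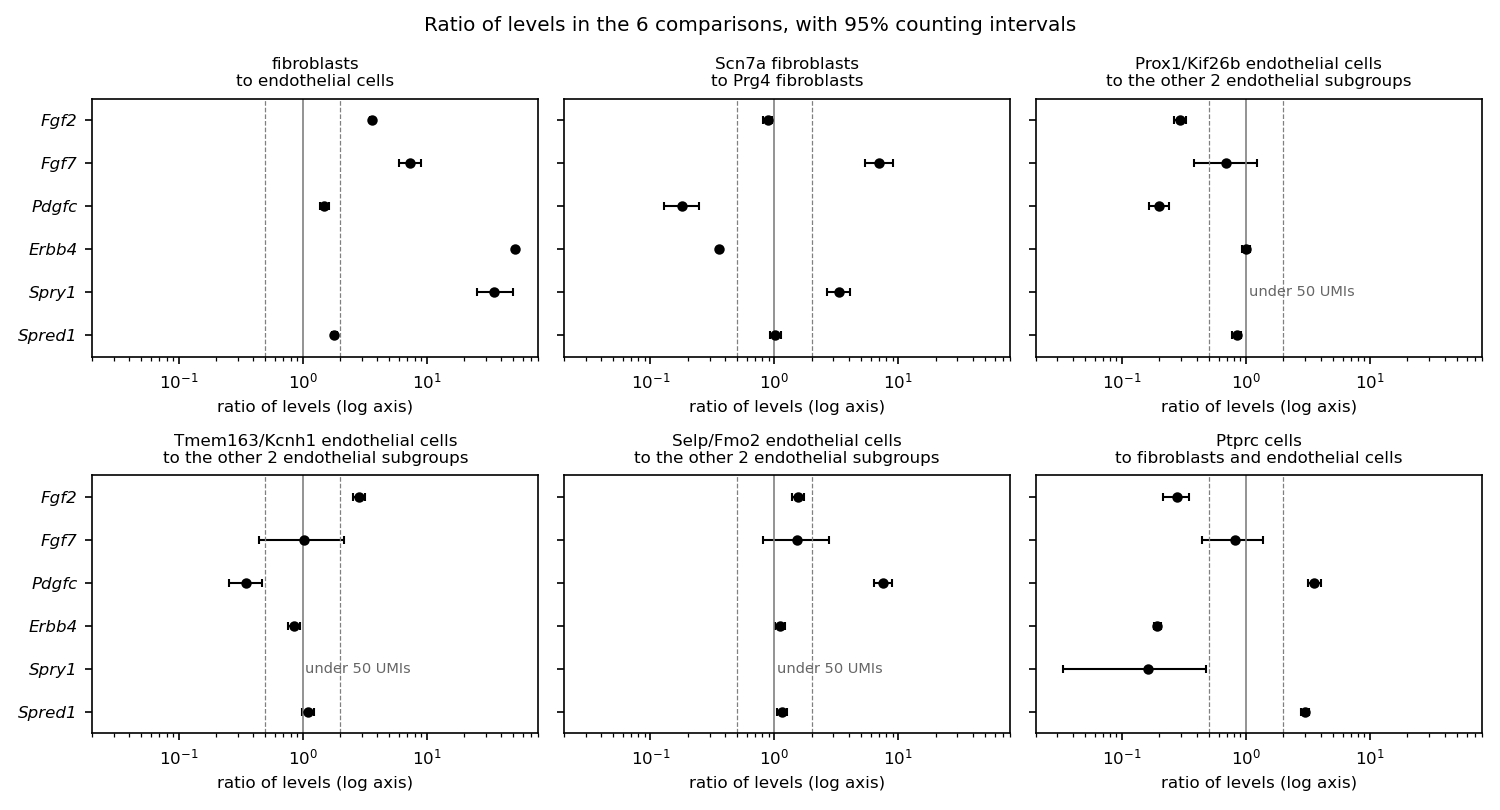
Ratios of levels of the 6 genes in the 6 comparisons, on a log axis, with bars for 95% exact conditional intervals and dashed lines at 2-fold. Fgf7 and Spry1 lay to the right of the line and Pdgfc and Erbb4 to the left between Scn7a and Prg4 fibroblasts, and Spry1 is left out of the endothelial comparisons, where it had fewer than 50 UMIs.

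The genes lie, in GRCm38, at chr3:37348346-37410108 (Fgf2, plus strand), chr2:126034658-126091185 (Fgf7, plus), chr3:81036416-81214040 (Pdgfc, plus), chr1:68032186-69108059 (Erbb4, minus), chr3:37639947-37644598 (Spry1, plus) and chr2:117121374-117182279 (Spred1, plus). The windows of 250 bases before the RefSeq start are shown for the 4 members that divided the fibroblast subgroups, Fgf7 and Spry1 on one side and Pdgfc and Erbb4 on the other. They were read in GRCm38.p6 from RefSeq, in which all 6 members had an entry, on the strand of each gene from 5′ to 3′. Their positions are chr2:126034408-126034657 on the plus strand for Fgf7, chr3:37639697-37639946 on the plus strand for Spry1, chr3:81036166-81036415 on the plus strand for Pdgfc and chr1:69108060-69108309 on the minus strand for Erbb4. Capitals mark matches, on either strand, to GGGCGG (GC box) or GGAATG (TEAD motif).
Fgf7: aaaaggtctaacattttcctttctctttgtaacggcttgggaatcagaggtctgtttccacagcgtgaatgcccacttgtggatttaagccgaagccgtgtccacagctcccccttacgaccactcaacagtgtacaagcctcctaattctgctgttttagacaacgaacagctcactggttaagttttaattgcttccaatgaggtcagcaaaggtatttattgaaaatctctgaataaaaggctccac
Spry1: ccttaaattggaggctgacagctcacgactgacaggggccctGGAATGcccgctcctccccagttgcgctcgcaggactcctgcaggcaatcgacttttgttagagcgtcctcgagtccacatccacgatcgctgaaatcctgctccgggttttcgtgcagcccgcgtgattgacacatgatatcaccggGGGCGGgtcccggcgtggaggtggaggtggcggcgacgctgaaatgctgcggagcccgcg
Pdgfc: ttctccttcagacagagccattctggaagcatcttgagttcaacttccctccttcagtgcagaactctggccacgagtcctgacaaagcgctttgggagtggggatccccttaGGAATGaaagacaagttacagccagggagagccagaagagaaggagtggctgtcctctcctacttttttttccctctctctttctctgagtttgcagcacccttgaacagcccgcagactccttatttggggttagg
Erbb4: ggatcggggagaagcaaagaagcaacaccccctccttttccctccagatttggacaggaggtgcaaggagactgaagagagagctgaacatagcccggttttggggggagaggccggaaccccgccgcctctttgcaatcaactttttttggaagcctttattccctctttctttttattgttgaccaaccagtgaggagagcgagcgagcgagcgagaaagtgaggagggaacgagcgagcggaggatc

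The windows differed in base composition. That of Spry1 had 62.4% GC and 23 CpG, that of Erbb4 54% and 12, that of Pdgfc 50.8% and 3, and that of Fgf7 43.6% and 6, beside medians of 52.4% and 6 over all 32851 windows of this length. Of the motifs searched on both strands, GGGCGG was in the Spry1 window, 60 bases before the start, and is held by 32.7% of all windows. GGAATG was in the windows of Spry1, 208 bases before the start, and Pdgfc, 137 bases before it, and is held by 12.6%. The letters TATAAA of the core element bound by TBP, held by 12.4% of all windows, were in none of the 4, nor were TGACTCA (AP-1, held by 4.46%) or CCGGAAGT (ETS, held by 2.88%). The Spry1 window overlaps an exon of the unclassified transcript Gm42922 on the other strand, and the other 3 overlap no annotated exon. A match describes these letters only, and neither side of the fibroblast split shared a motif that the other lacked.

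Fgf2 encodes basic fibroblast growth factor, which is stored on heparan sulfate of the matrix and acts on many mesenchymal and endothelial cells. Its level was 2.29 (2.22 to 2.35) in fibroblasts, 0.629 (0.608 to 0.651) in endothelial cells and 0.301 (0.236 to 0.378) in Ptprc cells. Fibroblasts were thus highest, 3.64-fold (3.48 to 3.8) over endothelial cells, with ratios of 3.36 in the first run and 5.46 in the second. At 2000 UMIs per cell, an Fgf2 UMI was found in 27.2% of fibroblasts, 9.32% of endothelial cells and 4.81% of Ptprc cells (52.4%, 20.9% and 8.94% without thinning). Among endothelial cells, the Prox1/Kif26b subgroup was at 3.90% at 2000 UMIs, below the share in Ptprc cells. The part of free RNA in these shares was not tested. Among fibroblasts the subgroups were close, from 2.56 (2.35 to 2.79) in cells with both Scn7a and Prg4 through 2.38 (2.29 to 2.47) in Prg4 cells and 2.11 (1.96 to 2.26) in Scn7a cells to 2.06 (1.92 to 2.20) in cells with neither. Intervals overlapped between the first 2 of these and between the last 2, and the pairs lay apart. The ratio of Scn7a to Prg4 fibroblasts, 0.887 (0.817 to 0.962), was under 1.5-fold either way.

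The endothelial subgroups differed more in Fgf2 than the fibroblasts did. Tmem163/Kcnh1 cells had a level of 1.14 (1.04 to 1.24), 2.85-fold (2.56 to 3.18) over the other 2 subgroups together, with ratios of 2.68 in the first run and 2.73 in the second, where the subgroup had 35 cells. This ratio ranked 49 from the highest among 2151 genes. Cells of no pair followed at 0.890 (0.826 to 0.957), then Selp/Fmo2 cells at 0.714 (0.653 to 0.779) and cells of several pairs at 0.672 (0.635 to 0.711), whose intervals overlapped. Prox1/Kif26b cells were lowest of all groups at 0.259 (0.235 to 0.285), with an interval that overlapped that of Ptprc cells. They were 3.41-fold (3.04 to 3.83) below the other subgroups, a ratio of 0.293, with 0.303 in the first run and 0.327 in the second. Fgf2 therefore separated the endothelium into a group at the level of the leukocytes and groups well above it. The 4 of 9 cardiomyocyte markers in the matrix summed to 2.92 in Tmem163/Kcnh1 cells, 1.08 in Prox1/Kif26b cells and 1.21 in Selp/Fmo2 cells, most abundantly Ttn, with Mybpc3 at 0 in the first, and their part in the result was not tested.

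Whether reads were counted by strand is not given in the sources used here, and without strand, reads of Fgf2 and of its antisense partners cannot be told apart. Fgf2os, which overlaps the start of Fgf2 on the minus strand, had a level of 0.0450 in fibroblasts and 0.00781 in endothelial cells. Nudt6, which overlaps its 3′ end, had levels of 0.121 in fibroblasts, 0.147 in endothelial cells and 0.235 in Ptprc cells. Fgf2 and Fgf2os were thus both higher in fibroblasts, and Nudt6 went the other way. Depth also moved with Fgf2: with fibroblasts split into 3 equal parts by their UMIs, its level was 1.75, 2.04 and 2.64 from the shallowest cells to the deepest. The part of depth in these levels was not tested.

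Fgf7, the keratinocyte growth factor, is made by mesenchymal cells and acts on the epithelial form of FGF receptor 2. It was sparse, with 704 UMIs over all cells, of which 28.8% came from the 514 Scn7a fibroblasts. Its level there was 0.573 (0.497 to 0.658), against 0.0824 (0.0665 to 0.101) in Prg4 fibroblasts, a ratio of 6.96 (5.42 to 8.99). This ranked 7 from the highest among 2054 genes, and the ratios within the runs were 7.36 (5.66 to 9.65) and 4.71 (2.06 to 12.1). Cells with both genes had an intermediate level of 0.180 (0.127 to 0.247), and cells with neither were at 0.148 (0.113 to 0.191), with overlapping intervals. Outside the fibroblasts, levels fell from 0.0620 (0.0460 to 0.0817) in endothelial cells of no pair and 0.0576 (0.0315 to 0.0967) in Ptprc cells to 0.0158 (0.0102 to 0.0233) in Prox1/Kif26b cells, and every neighbour in this order overlapped the next. Few cells carried the first 2 of these levels, with 50 UMIs in 12 cells of no pair and 14 UMIs in 5 Ptprc cells. The interval of Prg4 fibroblasts overlapped that of endothelial cells of no pair as well. Fgf7 was thus set apart in 1 fibroblast subgroup.

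Shares of cells told the same of Fgf7. At 2000 UMIs a UMI was found in 8.33% of Scn7a fibroblasts, 1.11% of Prg4 fibroblasts and 0.238% of endothelial cells, a type taken here as lacking it (16.5%, 3.25% and 0.714% without thinning, at median depths of 6293, 6224.5 and 5365.5 UMIs). Fibroblasts as a whole were at 0.188 (0.170 to 0.208) and endothelial cells at 0.0257 (0.0216 to 0.0303), a ratio of 7.33 (6.02 to 8.96), with 9.07 in the first run and 4.36 in the second. The subgroup was also graded. By the number of Scn7a UMIs in a Scn7a fibroblast, a split chosen after the levels were seen, the level of Fgf7 was 0.395 (0.270 to 0.558) with 1 UMI, 0.527 (0.415 to 0.659) with 2 to 4 and 0.738 (0.597 to 0.902) with 5 or more. Only the first and last of these had intervals apart, and their median depths were 5142 and 7580 UMIs. The Schwann cell gene Cdh19 was at 1.31 in Scn7a and 0.757 in Prg4 fibroblasts, and its part in the result was not tested.

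**Figure D3:**
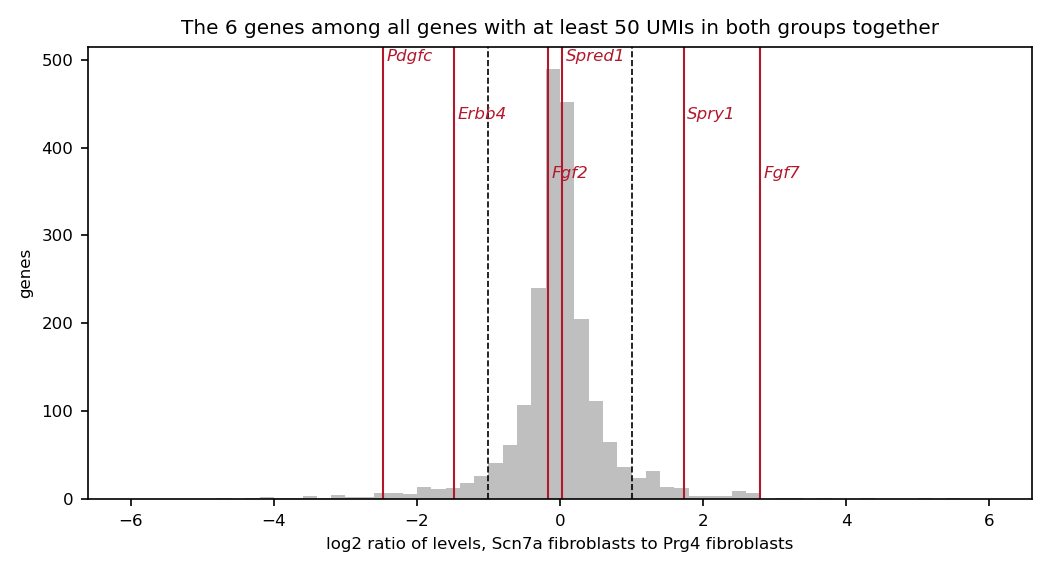
Distribution over 2054 genes of the log2 ratio of levels in Scn7a to Prg4 fibroblasts, with the number of genes on the vertical axis, the 6 genes as red lines and 2-fold as dashed lines. Fgf7 and Spry1 lay in the right tail, Pdgfc and Erbb4 in the left, and Fgf2 and Spred1 near the middle.

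Pdgfc encodes a PDGF that is secreted in latent form, is activated when its CUB domain is cleaved off, and binds PDGF receptor alpha, the receptor of fibroblasts and their precursors. It was highest in Ptprc cells at 1.24 (1.11 to 1.39), 3.54-fold (3.13 to 3.99) over fibroblasts and endothelial cells together, and 3.67-fold and 3.21-fold in the first and second runs. Next were Selp/Fmo2 endothelial cells at 0.707 (0.646 to 0.771) and Prg4 fibroblasts at 0.646 (0.60 to 0.695), with overlapping intervals. Each of these 2 was the highest group of its lineage. Endothelial cells of several pairs followed at 0.422 (0.393 to 0.453), fibroblasts with both genes at 0.327 (0.255 to 0.414) and with neither at 0.322 (0.269 to 0.383), and endothelial cells of no pair at 0.247 (0.214 to 0.283), each overlapping the next. Apart from these lay Scn7a fibroblasts at 0.116 (0.0831 to 0.157), Tmem163/Kcnh1 cells at 0.0989 (0.0724 to 0.132) and Prox1/Kif26b cells at 0.0922 (0.0779 to 0.108), which overlapped each other. Low and high groups of the same lineage differed more than the lineages did: fibroblasts at 0.463 (0.434 to 0.493) and endothelial cells at 0.308 (0.294 to 0.323) had a ratio of 1.5 (1.38 to 1.63), which was 1.37 in the first run and 2.62 in the second.

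Within the endothelium, Pdgfc was 7.54-fold (6.37 to 8.95) higher in Selp/Fmo2 cells than in the other 2 subgroups, a ratio that ranked 17 among 2151 genes and was 7.43 in the first run and 7.96 in the second. Prox1/Kif26b cells were 5.05-fold (4.20 to 6.11) and Tmem163/Kcnh1 cells 2.85-fold (2.11 to 3.94) below the rest. Within the first and second runs the ratio of Prox1/Kif26b cells was 0.207 and 0.157, and that of Tmem163/Kcnh1 cells was 0.349 and 0.151, the last from 1 UMI. At 2000 UMIs, a Pdgfc UMI was found in 10.5% of Selp/Fmo2 cells and 1.22% of Prox1/Kif26b cells (17.1% and 2.65% without thinning, at median depths of 4770.5 and 5269 UMIs, with 100 and 174 shallower cells left out). Free RNA was not measured, and its part in these 2 shares was not tested. The 8 of 11 fibroblast markers in the matrix summed to 6.37 in Selp/Fmo2 cells, 4.55 in Tmem163/Kcnh1 cells and 2.63 in Prox1/Kif26b cells, most abundantly Col5a2 in each. Between Selp/Fmo2 and Tmem163/Kcnh1 cells single genes of this kind differed in direction, with Col3a1 at 1.65 and 0.140, Dpt at 0.0141 and 0.0538, Col5a2 at 3.38 and 3.43 and Prrx1 at 0.0254 and 0.0237, and their part in the result was not tested.

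Among fibroblasts, Pdgfc ran opposite to Fgf7. It was 5.58-fold (4.07 to 7.84) lower in Scn7a than in Prg4 fibroblasts, a ratio that ranked 30 from the lowest among 2054 genes. It was 0.179 over all cells, 0.134 in the first run and 0.264 in the second. At 2000 UMIs a UMI was found in 1.39% of Scn7a and 9.10% of Prg4 fibroblasts (2.53% and 17.9% without thinning), the former at about the share of Prox1/Kif26b endothelial cells. With Scn7a fibroblasts in 3 equal parts by depth, 38 of their 41 UMIs came from the deepest part, with a median of 9650 UMIs per cell, and 1 and 2 from the others. Within Prg4 fibroblasts the level rose with the number of Prg4 UMIs, from 0.394 (0.294 to 0.518) with 1 UMI through 0.501 (0.415 to 0.599) with 2 to 4 to 0.735 (0.675 to 0.798) with 5 or more, at median depths of 5379.5, 5846 and 6682 UMIs. Depth itself moved with the level in these cells, which was 0.371, 0.688 and 0.723 in 3 equal parts from the shallowest cells to the deepest, and its part was not tested.

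Ptprc cells were not uniform in Pdgfc. Mrc1, the macrophage mannose receptor, was used to divide them after the levels were seen. In the 303 cells with an Mrc1 UMI, Pdgfc was at 1.74 (1.55 to 1.95) from 295 UMIs, and in the 167 cells without one it was at 0.0957 (0.0385 to 0.197) from 7 UMIs. Pdgfc in the latter was thus at the level of Prox1/Kif26b endothelial cells, and nearly all of the leukocyte signal came from cells with Mrc1. Spred1 was also higher with Mrc1, at 3.81 (3.52 to 4.12) against 1.94 (1.63 to 2.29), whereas Erbb4 was lower, at 2.83 (2.58 to 3.09) against 5.28 (4.76 to 5.83). Fgf2, at 0.253 (0.183 to 0.341) and 0.410 (0.277 to 0.585), had overlapping intervals. Median depths were 5164 UMIs with Mrc1 and 3974 without.

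**Figure D4:**
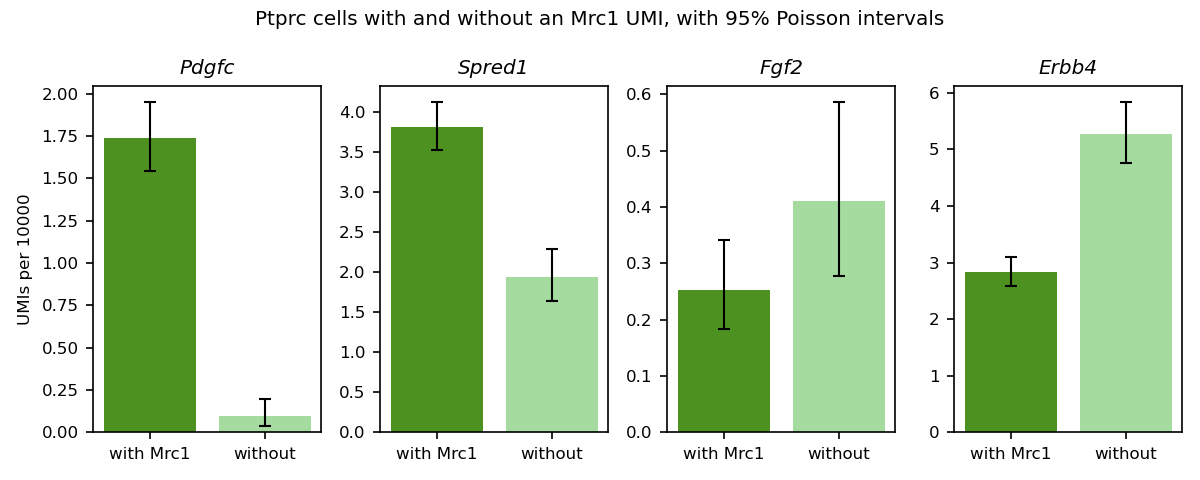
Levels of Pdgfc, Spred1, Fgf2 and Erbb4 in the 303 Ptprc cells with an Mrc1 UMI and the 167 without, in UMIs per 10000, with bars for 95% exact Poisson intervals. Pdgfc was at 1.74 with Mrc1 and 0.0957 without.

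Erbb4 encodes the ErbB4 receptor tyrosine kinase, which binds neuregulins. Of its 197119 UMIs 67% were in fibroblasts, which were 19.2% of cells. Cells that met no rule held a further 21.2%, at a level of 26.0. Those with fibroblast genes and Egfl7 held 7.99%, at 43.3. The level of Erbb4 was 63.2 (62.8 to 63.5) in fibroblasts, 1.22 (1.19 to 1.25) in endothelial cells and 3.57 (3.33 to 3.81) in Ptprc cells. The ratio of fibroblasts to endothelial cells was 51.7 (50.5 to 53.1), which ranked 18 among 2592 genes, and was 47.7 in the first run and 83.9 in the second. At 2000 UMIs an Erbb4 UMI was found in 91.9% of fibroblasts, 8.82% of endothelial cells and 15.1% of Ptprc cells (94.4%, 18.7% and 25.7% without thinning). Most fibroblasts thus held the receptor transcript at this depth. Endothelial cells had a lower share than Ptprc cells, and how far free RNA made up either share was not tested.

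Levels of Erbb4 differed sharply among fibroblasts. They were 75.7 (75.2 to 76.2) in Prg4 cells, 71.2 (70.4 to 72.1) in cells with neither gene, 41.5 (40.6 to 42.4) in cells with both and 27.2 (26.6 to 27.7) in Scn7a cells, and no intervals in this order overlapped. Scn7a fibroblasts were 2.78-fold (2.73 to 2.84) below Prg4 fibroblasts, a ratio of 0.359 that was 0.339 in the first run and 0.391 in the second, and ranked 82 from the lowest among 2054 genes. The difference also showed cell by cell. A Prg4 fibroblast had a median of 59.9 Erbb4 UMIs per 10000 UMIs of the cell, with quartiles of 33.1 and 92.6, and 15 of 1662 cells (0.903%) had none. A Scn7a fibroblast had a median of 14.4, with quartiles of 1.86 and 36.5, and 107 of 514 cells (20.8%) had none. Medians were 28.3 in cells with both genes and 50.9 in cells with neither, the latter with quartiles of 26.5 and 86.3. The upper quartile of Scn7a fibroblasts thus lay above the lower quartile of Prg4 fibroblasts, and a cell with 0 UMIs is not shown to lack the transcript. Intervals of the levels leave out the spread between cells, and so do not separate Prg4 cells from cells with neither.

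**Figure D5:**
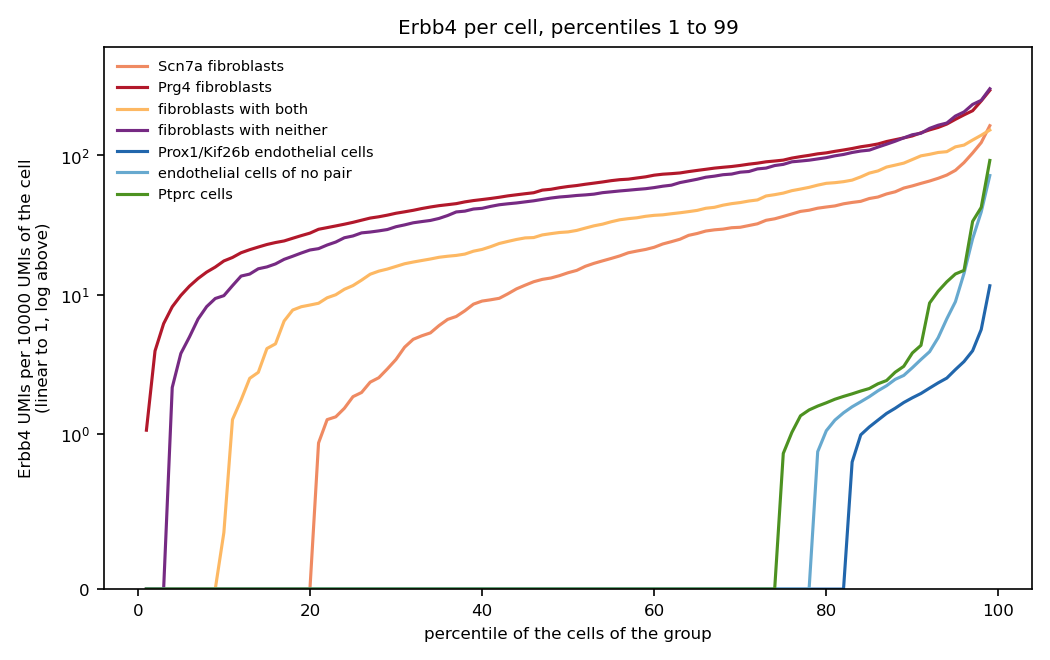
Erbb4 UMIs per 10000 UMIs of the cell at percentiles 1 to 99 of the cells of 7 groups, on an axis that is linear to 1 and logarithmic above. The curve of Scn7a fibroblasts lay below that of Prg4 fibroblasts throughout, with medians of 14.4 and 59.9, and most endothelial and Ptprc cells were at 0.

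Erbb4 was graded more by Scn7a than by Prg4. With 1, 2 to 4 and 5 or more Scn7a UMIs in a Scn7a fibroblast, its level fell from 36.1 (34.8 to 37.4) through 29.4 (28.5 to 30.3) to 19.1 (18.3 to 19.8). With the same numbers of Prg4 UMIs in a Prg4 fibroblast, it was 77.6 (76.1 to 79.1), 76.1 (75 to 77.2) and 75.2 (74.6 to 75.8). The first and last had intervals apart, but these leave out the spread between cells and do not separate the 2 levels. Median depths were 5142, 5946.5 and 7580 UMIs in the first series. In 3 equal parts of Scn7a fibroblasts from the shallowest to the deepest, Erbb4 was at 23.8, 25.8 and 29.4. In Ptprc cells Erbb4 was 5.21-fold (4.87 to 5.57) below fibroblasts and endothelial cells together, a ratio of 0.192, with 0.194 and 0.218 in the runs. As a share of the level in fibroblasts, Erbb4 in Ptprc cells stood at 5.64%, close to the 6.04% of Col6a3 and the 7.43% of Col5a2 and under the 24.2% of Fmod, 24.3% of Prelp and 24.6% of Fap. Endothelial cells of no pair had 5.58% of the fibroblast level, at 3.53 (3.40 to 3.66), an interval that overlapped that of Ptprc cells, beside 4.91% for Col6a3, 5.52% for Fap, 10.2% for Fmod, 33.5% for Col5a2 and 51.9% for Prelp. The level of this group came from a minority of its cells, since 78.1% had no Erbb4 UMI and 1.58% were at 50 or more. Ptprc cells were alike in this, with 74.3% and 1.91%. The remaining endothelial groups were lower, at 0.985 (0.913 to 1.06) in Selp/Fmo2 cells, 0.912 (0.865 to 0.960) in Prox1/Kif26b cells, 0.802 (0.723 to 0.888) in Tmem163/Kcnh1 cells and 0.665 (0.628 to 0.703) in cells of several pairs. Of neighbours in this order only the last pair had intervals apart, and no comparison of the 3 subgroups reached 1.5-fold over all cells. The ratio of Tmem163/Kcnh1 cells, 0.859 (0.767 to 0.959), was 0.550 (0.402 to 0.738) where cells were thinned to 2000 UMIs and then sorted anew, and 0.783 and 0.601 in the runs.

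Spry1, a Sprouty inhibitor that is induced by FGF and other receptor tyrosine kinase signals, was nearly confined to fibroblasts among the sorted groups. Its level was 0.254 (0.233 to 0.277) in fibroblasts, from 532 of 788 UMIs (67.5%). In endothelial cells it was 0.00725 (0.00516 to 0.00991), from 39 UMIs, and in Ptprc cells 0.0124 (0.00255 to 0.0361), from 3 UMIs. Cells that met no rule held 20.8% of the Spry1 UMIs, at a level of 0.102. Those with fibroblast genes and Egfl7 held 6.35%, at 0.137. The ratio of fibroblasts to endothelial cells was 35.1 (25.3 to 49.9), which ranked 48 among 2592 genes, with 32.1 in the first run and, from 4 endothelial UMIs, 55.8 (20.4 to 213) in the other. That of Ptprc cells to the other types together was 0.162 (0.0332 to 0.475), with all 3 UMIs in the first run. Spry1 thus followed Erbb4 between cell types.

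Among fibroblasts, Spry1 followed Fgf7 and not Erbb4. The order was Scn7a cells at 0.523 (0.450 to 0.604), cells with both genes at 0.403 (0.322 to 0.498), cells with neither at 0.211 (0.169 to 0.262) and Prg4 cells at 0.158 (0.135 to 0.183), with overlaps within the first pair and within the last. Scn7a fibroblasts were 3.31-fold (2.68 to 4.09) above Prg4 fibroblasts, a ratio that ranked 37 from the highest. Run by run the ratio was 3.56 (2.86 to 4.43) and 2.26 (0.951 to 5.63), the latter interval including 1. At 2000 UMIs a Spry1 UMI was found in 11.3% of Scn7a and 3.03% of Prg4 fibroblasts, against 0.167% of endothelial cells (25.7%, 8.42% and 0.390% without thinning). Unlike Fgf7, Spry1 showed no rise with the number of Scn7a UMIs, at 0.654 (0.490 to 0.856), 0.464 (0.360 to 0.590) and 0.505 (0.390 to 0.644), with intervals that overlapped. In the endothelial subgroups it was at 0.0174 (0.00949 to 0.0291) in cells of no pair, 0.0113 (0.00487 to 0.0222) in Selp/Fmo2 cells, 0.00716 (0.00381 to 0.0123) in cells of several pairs, 0.00430 (0.000521 to 0.0155) in Tmem163/Kcnh1 cells and 0.00126 (0.000153 to 0.00456) in Prox1/Kif26b cells. The last of these lay apart from the first 2, at 2 to 14 UMIs per group.

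Spred1 encodes a Spred protein that holds the Ras regulator neurofibromin at the membrane and so restrains activation of the MAP kinases. It was found in all types and was highest in Ptprc cells at 3.25 (3.03 to 3.48), followed by fibroblasts at 1.59 (1.54 to 1.65) and endothelial cells at 0.883 (0.858 to 0.908). The ratio of Ptprc cells to the other types together was 3.0 (2.79 to 3.23), with 3.08 in the first run and 2.79 in the second. Fibroblasts exceeded endothelial cells 1.81-fold (1.73 to 1.89), with 1.76 and 2.24 in the runs. At 2000 UMIs a Spred1 UMI was found in 44.2% of Ptprc cells, 26.2% of fibroblasts and 14.5% of endothelial cells (59.8%, 53.5% and 32.0% without thinning). Shares thus kept the order of the levels.

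Spred1 was nearly even within fibroblasts and within the endothelium. The fibroblast groups were at 1.73 (1.60 to 1.87) with neither gene, 1.59 (1.46 to 1.72) in Scn7a cells, 1.56 (1.48 to 1.63) in Prg4 cells and 1.55 (1.39 to 1.73) with both, all overlapping, and the ratio of Scn7a to Prg4 cells was 1.02 (0.926 to 1.12). Endothelial groups were at 0.938 (0.868 to 1.01) in Selp/Fmo2 cells, 0.932 (0.867 to 1.0) in cells of no pair, 0.918 (0.875 to 0.963) in cells of several pairs and 0.916 (0.831 to 1.01) in Tmem163/Kcnh1 cells, with overlapping intervals. Prox1/Kif26b cells were lower, at 0.783 (0.740 to 0.828), a ratio of 0.843 (0.776 to 0.915) to the other 2 subgroups. Spry1 thus differed both between lineages and between these fibroblast subgroups, whereas over all cells Spred1 passed 2-fold only in Ptprc cells.

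Beside the members, 11 of 102 further listed genes of these pathways were in the matrix, all of them intracellular: Shc1, Plcg1, Src, Rasgrp1, Rasal2, Rapgef4, Dusp2, Dusp10, Dusp12, Dusp19 and Dusp23. In fibroblasts 2 of 11 were at least 2-fold higher than in endothelial cells, against 18.1% of all genes, and 2 of 11 at least 2-fold lower, against 15.1%. Rapgef4, an exchange factor for Rap1 that responds to cyclic AMP, was at 3.77 against 0.272, a ratio of 13.9 (13.1 to 14.7), and Dusp10, a phosphatase of stress-activated MAP kinases, had a ratio of 2.77 (2.31 to 3.32), but of 1.78 (0.913 to 3.28) in the second run. Rasal2, a Ras GTPase-activating protein, was at 1.69 against 4.82, and Dusp2, a phosphatase of nuclear ERK, had 5 UMIs against 592. Between Scn7a and Prg4 fibroblasts 1 of 9 was higher (5.65% of all genes), Dusp19 at 2.02-fold (1.19 to 3.38) and under 2-fold in the first run (1.94), and 1 of 9 lower (6.18% of all genes), Rapgef4 at 1.19 against 4.67, so that Rapgef4 and Erbb4 shared their direction in both comparisons. Within the endothelium, 1 of 10 was higher and 2 of 10 lower in Prox1/Kif26b cells (Dusp2 4.51-fold higher, Rapgef4 and Dusp23 lower, with 3.77% and 6.69% of all genes), 1 and 1 in Tmem163/Kcnh1 cells (Rapgef4 2.45-fold higher, Dusp2 lower, with 5.39% and 7.25%) and 1 and 2 in Selp/Fmo2 cells (Dusp23 2.26-fold higher, Dusp2 and Dusp10 lower, with 4.74% and 4.0%). Of these 8 ratios 5 were under 2-fold in 1 of the runs: in Prox1/Kif26b cells Rapgef4 in the first (0.538) and Dusp23 in the second (0.611), and in the second also Dusp2 in Tmem163/Kcnh1 cells (0.519) and Dusp23 (1.64) and Dusp10 (0.597) in Selp/Fmo2 cells. In Ptprc cells 2 of 11 were higher, against 15.7% of all genes, and 4 of 11 lower, against 25.2%. Rasgrp1, which activates Ras in lymphocytes, was at 0.712 against 0.00897 in fibroblasts and endothelial cells together, and Dusp10 was 2.31-fold (1.61 to 3.23) higher, at 1.78 and 4.78 in the runs, whereas Plcg1, Rasal2, Rapgef4 and Dusp2 were lower. The ratio of Rapgef4, 0.329 (0.267 to 0.401), was 0.248 in the first run and under 2-fold in the second, at 0.869 (0.624 to 1.18).

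Patterns were compared over the 10 cell groups by Pearson correlation of log2 levels, among 2269 genes that did not define a group. The groups share libraries and differ in depth, so r is a description without a test. The genes most like Fgf2 were Ano3 (r = 0.982), Itih5 (0.979) and 4930523C07Rik (0.975), and those most like Fgf7 were Ccn5 (0.952), Msc (0.946) and Sfrp2 (0.943). Each of these 3 partners of Fgf7 was highest in Scn7a fibroblasts. For Spry1 they were Rgs7 (0.994), Ccdc173 (0.993) and Twist2 (0.992), again highest in Scn7a fibroblasts. For Erbb4 they were Myoc (0.993), Dnah7b (0.990) and D630003M21Rik (0.990), all highest in Prg4 fibroblasts or in those with neither gene. Pdgfc had no close partner, with Abca2 (0.825), Atp11b (0.807) and Mgat4a (0.804) at the head, and Spred1 was most like Nemp2 (0.980), Spg11 (0.977) and Pid1 (0.976). Between members, r was highest for Fgf7 and Spry1, at 0.932, and next for Erbb4 and Spry1, at 0.919, while Pdgfc ranged from -0.095 with Fgf2 to 0.557 with Spred1. Pdgfc thus had the pattern least shared with the other members.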

How the data were processed

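RNA of mitral valves from 3 mgR samples was captured with 10x 3' v3 chemistry. Per the submitters' processing notes, reads were processed with Cell Ranger 7.1.0 on mm10, and the authors filtered and normalized them in Seurat. The deposited values are natural logs, taken after each count was scaled to a cell total of 10000 and 1 was added, and Harmony, run by the authors on principal components, does not alter them. UMIs and totals were recovered from them, and 100% of the values above 0 and of the totals were whole within 0.02. Of 3265 genes listed, 1 was left out for 11958 empty values. No test was planned or run, since a pooled matrix holds no replicates. All cells were kept. No doublet caller was used, and cells with fibroblast genes and Egfl7 form a group of their own.

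UMIs were summed over each group. Intervals are exact at 95% (Poisson for levels, conditional binomial for ratios, computed with scipy 1.17.1). Genes with at least 50 UMIs in both groups together were compared, and 2-fold was the threshold. Shares were taken after thinning to 2000 UMIs with random seed 1. Genes were named by a rule: the 6 members, genes of the pathway list with at least 50 UMIs, and the 3 genes per member with the highest correlation of log2(level + 0.01) over 10 groups among those with at least 200 UMIs, genes that define groups left out. Genes outside it are markers, overlapping genes, or are said to be chosen after their values were seen. The members and lists, including 8 marker lists, were chosen with earlier results of these data known. The result for 1 marker is not reported here. Positions are from GENCODE M21 (GRCm38) and promoter windows from RefSeq (GRCm38.p6), and protein sequences were not used here. The steps were tested on simulated data. Python 3.11.15, numpy 2.4.6, scanpy 1.11.5, igraph 0.11.9, scikit-learn 1.9.0 and matplotlib 3.10.9 were used. Alternatives were stricter markers and subgroup rules, cells thinned and sorted anew, cells of at least 2000 UMIs, cells above the 95th percentile of UMIs left out, each barcode run, 10 Leiden clusters (resolution 0.5, 50 principal components, 2000 variable genes, 15 neighbours), means over cells, 1.5-fold and other minimum UMIs.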

Additional observations from a re-analysis of the deposited data

How the results depend on the processing

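Of 112 counts of members past a threshold under the alternatives, 106 stayed within 1.5 times the main count and 6 moved. The count of members higher in Scn7a than in Prg4 fibroblasts, 2, was 0 with cells thinned to 2000 UMIs and then sorted anew, which changes the groups as well as the depth, and 0 in the second barcode run. In both, 4 members had 50 UMIs, and Fgf7 and Spry1 fell under that minimum. Without it, their ratios were 11.4 and 3.96 thinned, and 4.71 and 2.26 in the second run. The count of members higher in Selp/Fmo2 cells, 1, was 2 with both genes of a pair required, 2 in the second run, 2 with means over cells and 3 at 1.5-fold. Fgf2 was the member added in the second run, at 2.38, and with both genes required, at 2.65, and the cause was not tested. All 18 ratios past 2-fold kept their direction and stayed past 2-fold wherever the groups were formed and 50 UMIs were reached: 18 of 18 under 6 alternatives, 16 of 16 with thinned cells and in the second run, and 9 of 9 with Leiden clusters, which were compared by cell type and not by subgroup. Of 254 single ratios, 78 left their main interval, and 0 of those past 2-fold changed direction. Of 162 levels 58 were counted as moved under the alternatives, and of 24 shares 4. Under 2-fold, Fgf2 between Scn7a and Prg4 fibroblasts, 0.887, was 1.047 with stricter markers and 1.19 in the second run, with intervals that include 1, and 0.669 (0.511 to 0.866) with thinned cells. With a minimum of 10 UMIs, the share of all genes lower was 9.57% in Scn7a fibroblasts, 11.3% in Tmem163/Kcnh1 cells and 6.59% in Selp/Fmo2 cells, the last 2.60% with 200. No paired analysis was possible because cells carry no replicate number, and no replicate could be left out for the same reason. Depth limits Fgf7 and Spry1 most, with 704 and 788 UMIs in all.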

Other observations

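Transcripts of Fgf7 and Spry1 were looked at in the same cells, a comparison chosen after the levels were seen. In the 401 fibroblasts with a Spry1 UMI, the level of Fgf7 was 0.361 (0.295 to 0.436, an exact interval at 95% as in the report), against 0.160 (0.142 to 0.179) in the 2748 without, a ratio of 2.26 (1.79 to 2.83) at median depths of 6590 and 5943 UMIs. Within Scn7a fibroblasts the ratio was 1.52 (1.13 to 2.04), and within Prg4 fibroblasts it was 1.16 (0.537 to 2.24), an interval that includes 1. By the reverse split, Spry1 in cells with an Fgf7 UMI had a ratio to cells without of 1.55 (1.15 to 2.05) over all fibroblasts, 1.49 (0.702 to 2.81) within Prg4 fibroblasts and 0.790 (0.508 to 1.19) within Scn7a fibroblasts, where 19 of 132 cells with Spry1 held both. By the first split, cells with a Spry1 UMI against those without, Pdgfc had a ratio of 0.950 (0.784 to 1.14) over all fibroblasts. Within Prg4 fibroblasts alone it was higher with Spry1, at 1.03 (0.844 to 1.24) in the 140 cells with a Spry1 UMI and 0.607 (0.56 to 0.656) in the 1522 without, a ratio of 1.69 (1.37 to 2.08) at median depths of 6824 and 6175 UMIs. Within Scn7a fibroblasts that ratio was 1.35 (0.653 to 2.66), an interval that includes 1. By the reverse split, cells with an Fgf7 UMI against those without, Pdgfc was lower over all fibroblasts, at a ratio of 0.518 (0.361 to 0.723). Within Prg4 fibroblasts that ratio was 1.04, with an interval that includes 1. Within Scn7a fibroblasts Pdgfc had 0 UMIs in the 85 cells with Fgf7 and 41 in the 429 without, but only 13 cells held these 41. Pdgfc also moved with depth in Prg4 fibroblasts, and the part of depth in these ratios was not tested.

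Endothelial Fgf7 was uneven between barcode runs. In Tmem163/Kcnh1 cells, 8 of 9 UMIs came from the second run, but all 9 were in only 4 cells, so that the interval of a level in this group understates its error. Endothelial cells as a whole went from 0.0205 (0.0165 to 0.0252) in the first to 0.0471 (0.0348 to 0.0623) in the other. Pdgfc also differed between runs in endothelial cells of no pair, at 0.185 (0.154 to 0.219) and 0.699 (0.543 to 0.886), and so did the leukocyte gene Ptprc in these cells, at 0.303 and 2.01. Erbb4 was higher in the second run in fibroblasts, at 79.4 (78.3 to 80.7) against 61.3 (61.0 to 61.7), and lower there in endothelial cells as a whole, at 0.947 (0.888 to 1.01) against 1.29 (1.25 to 1.32), but higher in endothelial cells of no pair, at 6.19 (5.70 to 6.70) against 3.16 (3.03 to 3.30). The runs carry no label, and what they stand for is not known.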
